A study of Mus musculus with 16 samples.

Results

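The ion channel genes examined here were the HCN genes Hcn2, Hcn3 and Hcn4 and the GIRK genes Kcnj3, Kcnj6, Kcnj9 and Kcnj5. HCN stands for hyperpolarization-activated cyclic nucleotide-gated channel, and GIRK for G protein-gated inwardly rectifying potassium channel. These 7 genes were taken by name from the 31960 genes of the count table, and all 7 were found. Poly-A RNA was sequenced from the hippocampi of 16 mice killed at 70 days of age, with 1 library per mouse. The groups were High Activity females (libraries 1 to 4), High Activity males (libraries 5 to 8), Low Activity females (libraries 9 to 12) and Low Activity males (libraries 13 to 16), with 4 mice in each. Both strains came from a cross of BALB/cJ and C57BL/6 mice by selection in opposite directions for open-field activity, a measure used for anxiety-like behaviour, and were then inbred, and no mouse carried an engineered allele or received a drug. Each strain was a single inbred line, so that selection for activity and chance fixation of other alleles cannot be told apart. The mice were separate animals, and p-values therefore measure the spread between mice.

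HCN channels open when the membrane hyperpolarizes and carry a depolarizing cation current, and binding of cyclic AMP eases their opening. GIRK channels do the reverse: they carry potassium out of the cell and quiet it when G protein beta-gamma subunits are released by receptors coupled to Gi or Go, such as the GABA-B receptor and the adenosine A1 receptor. In hippocampal pyramidal cells both channel types set how strongly dendritic inputs reach the cell body.

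The libraries held between 20815456 and 28760896 counts. The summed level of 8 hippocampal principal cell markers, among them Prox1 of the dentate gyrus and Wfs1 of area CA1, lay between 763 and 934 CPM, which are counts relative to the library's total after TMM scaling, in all 16 libraries, and none of the 8 was at 0. Markers of tissue next to the hippocampus differed in level between libraries. The summed level of 14 thalamus and habenula markers spanned 141 to 272 CPM in High Activity females, 119 to 146 CPM in Low Activity females, 128 to 715 CPM in High Activity males and 125 to 370.5 CPM in Low Activity males, and no group had a marker at 0 throughout. High Activity males 6 and 8 stood apart, with sums of 715 and 466 CPM. Their level of Gpr151, a habenula receptor gene, was 12.3 and 10.9 CPM, against 0.22 to 2.50 CPM in the other 14 libraries. Tcf7l2, a thalamic transcription factor gene, was above 20 CPM in libraries 1, 6, 8, 14 and 16 and between 3.08 and 14.03 CPM in the other 11. Low Activity males 14 and 16 had high Tcf7l2 (26.1 and 21.5 CPM) but low Gpr151 (0.47 and 0.81 CPM). High Activity males 5 and 6 and Low Activity male 13 also had 7.91, 5.96 and 11.02 CPM of Xist, against 0.29 to 0.74 CPM in the other 5 males and 621 to 805 CPM in females. The strain differences of the channel genes are given with and without these libraries.

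Hcn2, which encodes a major HCN subunit of thalamic relay cells and is also abundant in hippocampal neurons, had the highest level of the 7 genes per length of transcript. Divided by the length of its annotated exons, Hcn2 averaged 50.6 ± 5.14 CPM per kilobase (SD, n = 16 libraries). Kcnj3, which encodes GIRK1, the subunit that most neuronal GIRK channels contain, averaged 26.2 ± 1.83 CPM per kilobase. Kcnj9, which encodes GIRK3, averaged 20.4 ± 4.10 CPM per kilobase. Kcnj3 and Kcnj9 were neighbours whose ranges overlapped, at 23.8 to 30.4 and 15.9 to 32.1 CPM per kilobase. Kcnj6, which encodes GIRK2, the subunit that can form channels by itself, averaged 5.33 ± 0.972 CPM per kilobase. Hcn3 followed with 2.76 ± 0.334 CPM per kilobase, and its highest library (3.40) lay below the lowest library of Kcnj6 (3.70). Hcn4, the pacemaker subunit of the heart and a major subunit in thalamus, averaged 0.660 ± 0.517 CPM per kilobase. Kcnj5, which encodes GIRK4, the partner of GIRK1 in the atria of the heart, was lowest at 0.129 ± 0.102 CPM per kilobase, or 4 to 45 counts per library, and its range overlapped that of Hcn4. The order was the same when the longest annotated transcript served as the length, with Kcnj6 at 11.2 CPM per kilobase.

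**Figure D1:**
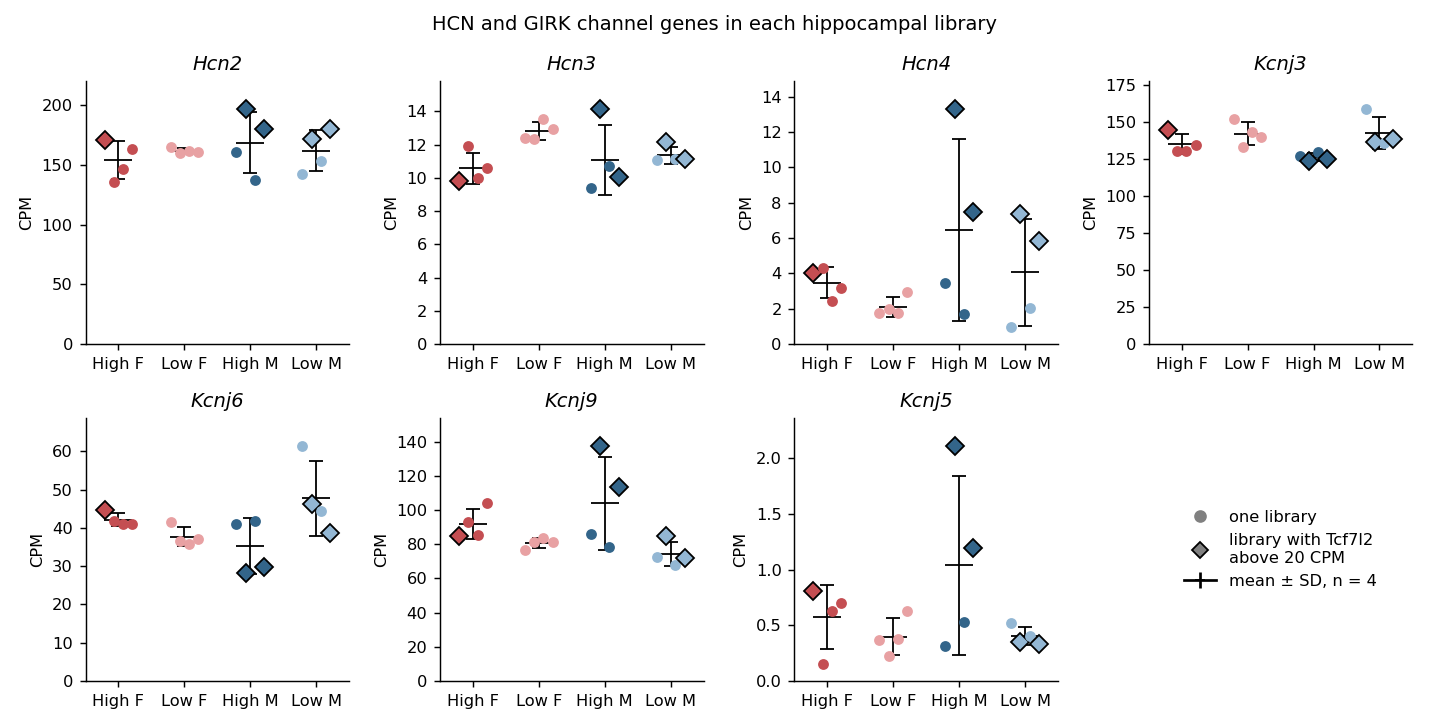
Level of each channel gene in CPM (y axis, from 0) in each library, by group (x axis, High before Low within each sex), with the mean and SD of 4 libraries, where diamonds mark the 5 libraries with Tcf7l2 above 20 CPM. Kcnj9 was above 100 CPM in High Activity female 4 and High Activity males 6 and 8 only, and the highest Hcn4 levels were in libraries 6, 8, 14 and 16.

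Expressed as shares of the summed level per kilobase, Hcn2 made up 91.7% to 94.7% of the HCN transcripts measured here, Hcn3 4.03% to 6.23% and Hcn4 0.343% to 3.24%. Of the GIRK transcripts, Kcnj3 made up 50.4% on average, Kcnj9 39.1%, Kcnj6 10.3% and Kcnj5 0.240%. The share of Kcnj6 depended on the length used, and with the longest annotated transcript it was 18.7%, beside 43.5% for Kcnj3 and 37.6% for Kcnj9. These are shares of transcript level, and no protein was measured.

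A test for any strain effect, which asks jointly whether High and Low Activity mice differ in either sex, called 2 of the 7 genes, Kcnj9 (adjusted p = 0.00740) and Kcnj6 (adjusted p = 0.0230), in edgeR's quasi-likelihood fit of all genes, where p-values carry a Benjamini-Hochberg adjustment. Called means an adjusted p under 0.05. The same test called 10.3% of all genes, 17.8% of the 17805 genes that pass a filter on low counts and 15.2% of protein-coding genes. All 7 channel genes passed that filter, so 2 of 7 is to be read against the 17.8%. Kcnj9 was called in 26 of 28 settings, the exceptions being without libraries 6 and 8 (adjusted p = 0.0548) and limma-voom (adjusted p = 0.0643). Kcnj6 was called in 21 of 28, and the call was lost without library 6, 8 or 13, without libraries 6 and 8 together (adjusted p = 0.188), without the male libraries with Xist above 2 CPM, with the filter on low counts and with limma-voom. Averaged over the sexes, Kcnj9 was higher and Kcnj3 was lower in High Activity mice, 2 of 7 against 11.4% of all genes and 19.2% of those that pass the filter. By direction, 5.46% of all genes were called higher and 5.89% lower in High Activity mice over the sexes. The median log2 fold change of the 7 genes over the sexes was -0.01, and that of all genes was 0.01.

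Kcnj9 was the channel gene with the clearest strain difference, higher in High Activity mice. GIRK3 alters the trafficking of the channels it joins. Kcnj9 measured 84.9, 92.7, 85.4 and 103.9 CPM in High Activity females, against 76.9, 81.3, 83.7 and 81.5 CPM in Low Activity females. Every High Activity female was above every Low Activity female, although the nearest values, 84.9 and 83.7 CPM, were close. In females 13.8% of all genes and 22.9% of those that pass the filter did not overlap between the strains. In males Kcnj9 measured 85.8, 137, 78.5 and 114 CPM in High Activity mice, against 72.3, 84.7, 68.02 and 71.9 CPM in Low Activity mice. High Activity males 6 and 8 had the highest levels, and High Activity male 7 lay below Low Activity male 14. The log2 fold change of High over Low was 0.18 ± 0.111 in females (SE, adjusted p = 0.418 by edgeR), 0.48 ± 0.111 in males (adjusted p = 0.00646) and 0.33 ± 0.0786 over the sexes (adjusted p = 0.00465), the last a 1.26-fold difference. The difference in males shrank to 0.32 (adjusted p = 0.0326) without library 6 and to 0.15 (adjusted p = 0.415) without libraries 6 and 8. Over the sexes the difference was called in 28 of 28 settings, with log2 fold changes between 0.16, reached without libraries 6 and 8 (adjusted p = 0.0242), and 0.39. Without all 5 libraries that had Tcf7l2 above 20 CPM, Kcnj9 averaged 94.0 CPM in 3 High Activity females against 80.9 CPM in 4 Low Activity females, and 82.1 CPM in 2 High Activity males against 70.2 CPM in 2 Low Activity males. The log2 fold change was then 0.22 in females (adjusted p = 0.00232), 0.23 in males (adjusted p = 0.0496) and 0.22 over the sexes (adjusted p = 6.35e-05). This fit held fewer mice but gave a smaller SE over the sexes, 0.0476 against 0.0786 with all 16 libraries. Its p-values, here and for the other channel genes below, are therefore not comparable with those of the main fit.

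Kcnj6 went the other way in males, where its level was lower in the High Activity strain, whereas in females its values leaned higher. It measured 41.1, 28.3, 41.9 and 29.8 CPM in High Activity males, against 61.4, 46.2, 44.5 and 38.6 CPM in Low Activity males. High Activity males 6 and 8 were the lowest of all 16 mice and Low Activity male 13 the highest, while the other males lay between 38.6 and 46.2 CPM and overlapped between the strains. In females Kcnj6 measured 44.7, 41.8, 41.1 and 40.9 CPM in High Activity mice, against 41.4, 36.5, 35.8 and 37.1 CPM in Low Activity mice, with only Low Activity female 9 inside the High Activity range. High over Low, the log2 fold change was -0.43 ± 0.114 in males (SE, adjusted p = 0.0192 by edgeR) and 0.16 ± 0.114 in females (adjusted p = 0.494). In males 2 of the 7 genes, Kcnj9 and Kcnj6, were called, against 6.04% of all genes and 10.4% of those that pass the filter. By direction, 2.78% of all genes were called higher and 3.25% lower in High Activity males, or 4.77% and 5.67% of those that pass the filter. The call in males was lost without library 13 (-0.29, adjusted p = 0.136), without library 6 (-0.34, adjusted p = 0.0728), without library 8 (-0.36, adjusted p = 0.0843), without both libraries 6 and 8 (-0.20, adjusted p = 0.393) and without the male libraries with Xist above 2 CPM (-0.26, adjusted p = 0.173). It was kept, at -0.35 (adjusted p = 0.00163), without the 5 libraries high in Tcf7l2, a fit with only 2 males of each strain.

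The strain difference of Kcnj6 differed between the sexes before adjustment, with an interaction of 0.59 ± 0.161 on the log2 scale, females minus males (unadjusted p = 0.00111, adjusted p = 0.163 by edgeR). No channel gene was called for an interaction, nor was any gene of the table (0.0% of all genes, with 3208 of 31960 at an unadjusted p under 0.05). Kcnj6 was the only one of the 7 with an unadjusted interaction p under 0.05. DESeq2 called 154 genes of the table for an interaction and limma-voom called 0, none of them among the 7. The Kcnj6 interaction was called in 2 of 28 settings, without library 7 at 0.69 (adjusted p = 0.0380) and without the 5 libraries high in Tcf7l2 at 0.48 (adjusted p = 0.00212). Without libraries 6 and 8 it was 0.36 (adjusted p = 0.578).

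Kcnj3 was slightly lower in High Activity mice. It measured 127, 124, 129 and 125 CPM in High Activity males, against 159, 136, 136 and 139 CPM in Low Activity males. Every High Activity male was below every Low Activity male, as was the case, in either direction, for 9.53% of all genes and 15.5% of those that pass the filter, and Low Activity male 13 was the highest. In females it measured 144, 131, 130.4 and 134 CPM in High Activity mice, against 152, 133, 143 and 139.9 CPM in Low Activity mice, with overlap. Its log2 fold change was -0.17 ± 0.0548 in males (SE, adjusted p = 0.0604 by edgeR), -0.07 ± 0.0547 in females (adjusted p = 0.516) and -0.12 ± 0.0387 over the sexes (adjusted p = 0.0362). The call over the sexes did not survive the removal of any 1 of libraries 2, 3, 4, 6, 8, 9, 11 and 13, with values between -0.12 and -0.09 and adjusted p between 0.0537 and 0.104. It was also lost without libraries 6 and 8 together (-0.11, adjusted p = 0.0863) and without the male libraries with Xist above 2 CPM (-0.09, adjusted p = 0.191). Without the 5 libraries high in Tcf7l2 it was kept, at -0.15 (adjusted p = 0.00774).

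Kcnj5 was measured at the limit of the sequencing depth. Its counts were 9, 45, 13 and 28 in High Activity males, against 13, 9, 11 and 9 in Low Activity males. Libraries 6 and 8 gave the high values, and the other males of both strains lay between 9 and 13 counts. In females the counts were 20, 4, 17 and 17 in High Activity mice, against 10, 6, 10 and 16 in Low Activity mice. Set against Low Activity, Kcnj5 had a log2 fold change of 1.34 ± 0.50 in males (SE, adjusted p = 0.134 by edgeR) and 0.52 ± 0.516 in females (adjusted p = 0.614). Without libraries 6 and 8 the value in males was 0.07, so the difference in males lay in those libraries. Kcnj5 was called over the sexes without library 5 (1.08, adjusted p = 0.0322) or without library 2 (1.10, adjusted p = 0.0350), and in males without library 5 (1.65, adjusted p = 0.0312).

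**Figure D2:**
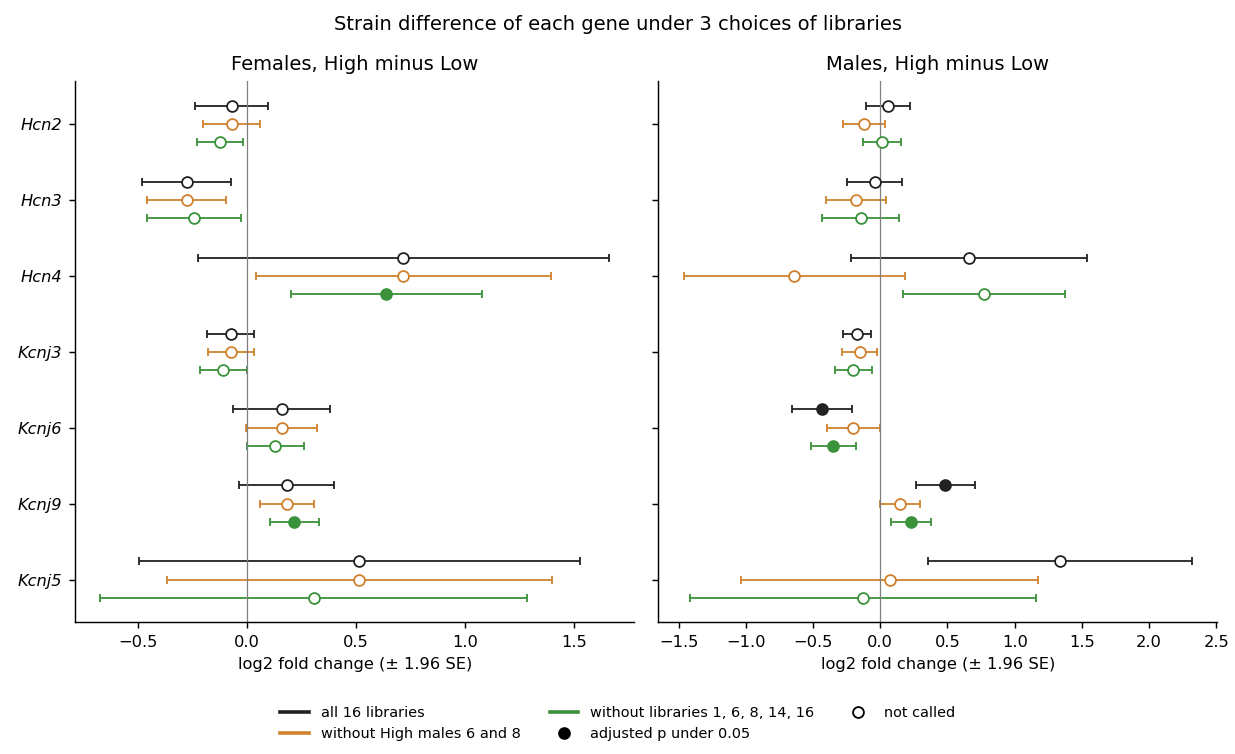
Log2 fold change of High over Low Activity (x axis) for each channel gene (y axis) in females and males, with 95% intervals, for all 16 libraries, without High Activity males 6 and 8, and without the 5 libraries with Tcf7l2 above 20 CPM, where filled points have an adjusted p under 0.05. The Kcnj9 point in males was at 0.48, 0.15 and 0.23 in these 3 fits, and the Hcn4 point in males at 0.66, -0.64 and 0.77.

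With Kcnj9 higher and Kcnj6 lower in High Activity males, the makeup of the GIRK transcripts differed more between the strains than their sum in CPM. That sum was not scaled for transcript length, whereas the shares were, so they are not on the same scale. Summed over the 4 genes, GIRK transcripts amounted to 269 ± 9.99 CPM in High Activity females and 261 ± 7.86 CPM in Low Activity females, and to 266 ± 18.8 CPM in High Activity males and 265 ± 20.6 CPM in Low Activity males (SD, n = 4 each). Kcnj9 took 44.9% ± 7.37 of the GIRK level per kilobase in High Activity males and 34.0% ± 3.14 in Low Activity males, and 40.4% ± 2.83 in High Activity females and 36.9% ± 1.90 in Low Activity females. Kcnj3 took 45.8% ± 5.10 in High Activity males and 53.6% ± 2.25 in Low Activity males, and 48.9% ± 2.27 in High Activity females and 53.3% ± 1.51 in Low Activity females. The CPM ratio of Kcnj9 to Kcnj6 was 3.16 ± 1.43 in High Activity males, with a range from 1.87 to 4.86, and 1.60 ± 0.319 in Low Activity males, with a range from 1.18 to 1.86. In females that ratio was 2.18 ± 0.271 in High Activity mice and 2.15 ± 0.208 in Low Activity mice. The ratio did not overlap between the strains in males, but the nearest values were 1.87 and 1.86, and the spread in High Activity males came from libraries 6 and 8. Without these libraries the ratio averaged 1.98 in High Activity males and Kcnj9 took 38.88% of the GIRK level per kilobase. These shares and ratios were not tested.

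**Figure D3:**
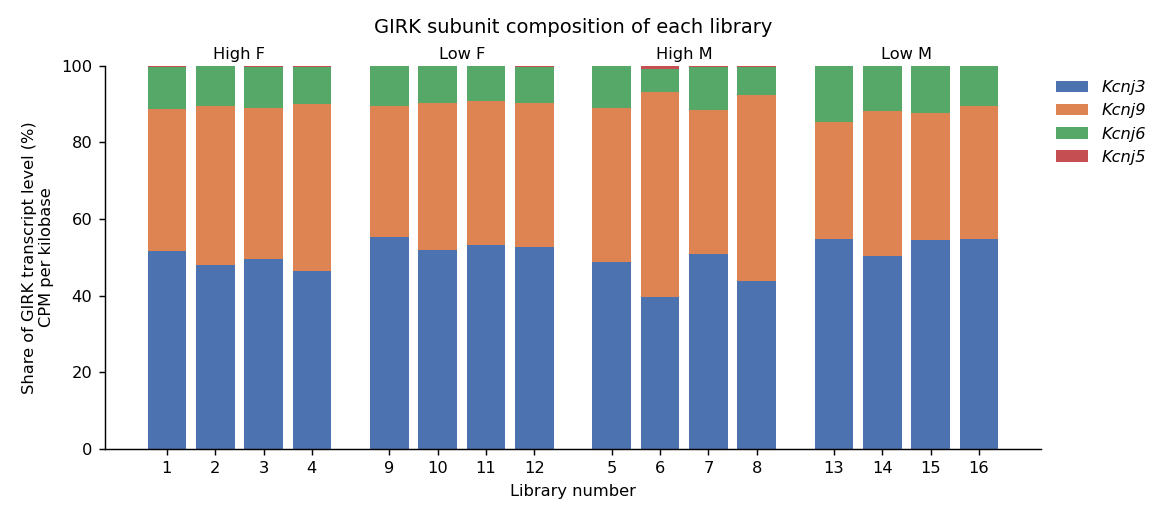
Share of each GIRK gene in the summed GIRK transcript level, in percent of CPM per kilobase (y axis), for each library (x axis), grouped by strain and sex. Kcnj9 was the largest share in libraries 6 and 8 (up to 53.5%), whereas Kcnj3 was the largest in the other 14 libraries.

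Hcn2 showed no strain difference that passed the test. It spanned 136 to 171 CPM in High Activity females and 160.2 to 165 CPM in Low Activity females, and 137 to 197 CPM in High Activity males and 142 to 180.1 CPM in Low Activity males. The strains overlapped in both sexes, with log2 fold changes of -0.07 ± 0.0851 for females (SE, adjusted p = 0.706 by edgeR) and 0.06 ± 0.0850 for males (adjusted p = 0.796). The interval of the difference over the sexes ran from -0.12 to 0.11 on the log2 scale (95%). Hcn2 measured 171 to 197 CPM in the 5 libraries with Tcf7l2 above 20 CPM and 136 to 165 CPM in the other 11, a limit set after the data were seen.

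Hcn3, a subunit with little response to cyclic AMP, measured 9.84, 11.9, 9.97 and 10.6 CPM in High Activity females, against 12.4, 12.4, 13.5 and 12.97 CPM in Low Activity females. Every High Activity female was below every Low Activity female, and 13.8% of all genes and 22.9% of those that pass the filter likewise did not overlap in females. Its log2 fold change was -0.28 ± 0.105 in females (SE, adjusted p = 0.125 by edgeR) and -0.04 ± 0.105 in males (adjusted p = 0.914), where High Activity mice spanned 9.39 to 14.1 CPM and Low Activity mice 11.1 to 12.2 CPM. Over the sexes Hcn3 was at -0.16 (adjusted p = 0.202), and was called lower in High Activity mice without library 6 (-0.23, adjusted p = 0.0210) and without libraries 6 and 8 (-0.23, adjusted p = 0.0366). No channel gene was called in females with all 16 libraries (0 of 7, with Hcn3 alone at an unadjusted p under 0.05), against 7.26% of all genes and 12.7% of those that pass the filter, and DESeq2 and limma-voom called 0 as well.

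Hcn4 varied widely between mice, most of all in males. It measured 3.48, 13.3, 1.68 and 7.47 CPM in High Activity males, against 0.995, 7.35, 2.03 and 5.85 CPM in Low Activity males. Libraries 6 and 8 were the high ones among High Activity males and libraries 14 and 16 among Low Activity males, so both strains held low and high mice. In females it measured 4.03, 4.30, 2.42 and 3.17 CPM in High Activity mice, against 1.78, 1.98, 1.77 and 2.95 CPM in Low Activity mice, and Low Activity female 12 overlapped the High Activity range. Neither log2 fold change passed the test, at 0.72 ± 0.481 for females (SE, adjusted p = 0.476 by edgeR) and 0.66 ± 0.447 for males (adjusted p = 0.505). With each sex fitted alone Hcn4 was called higher in High Activity females (0.72, adjusted p = 0.0298). Without libraries 6 and 8, but with libraries 14 and 16, the value in males turned to -0.64 (adjusted p = 0.562). Without all 5 libraries high in Tcf7l2, Hcn4 averaged 3.30 CPM in High Activity females and 2.12 CPM in Low Activity females, and 2.58 CPM in High Activity males and 1.51 CPM in Low Activity males. Hcn4 was then called higher in High Activity mice over the sexes, at 0.70 (adjusted p = 0.00287), and in females, at 0.64 (adjusted p = 0.0380), but not in males, at 0.77 (adjusted p = 0.153). In the libraries kept, the thalamus and habenula marker sums were 215, 141 and 159 CPM in High Activity females 2, 3 and 4. They were 230 and 128 CPM in High Activity males 5 and 7, against 119 to 146 CPM in the Low Activity libraries kept. The part of this remaining difference in the Hcn4 levels was not tested.

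**Figure D4:**
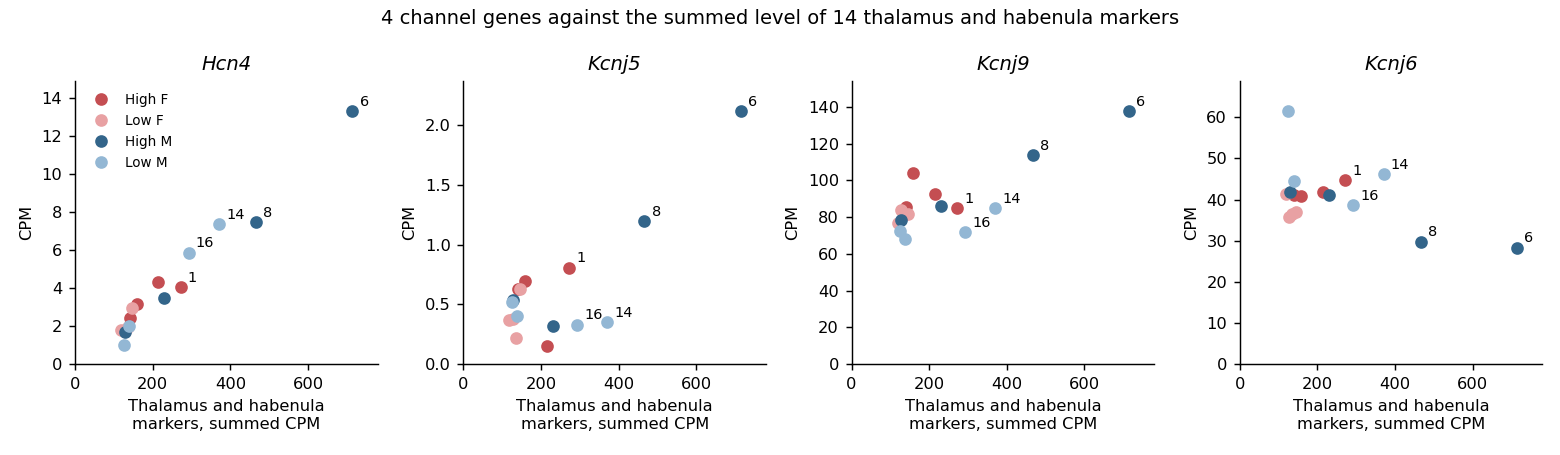
Level of Hcn4, Kcnj5, Kcnj9 and Kcnj6 in CPM (y axes, from 0) against the summed CPM of 14 thalamus and habenula markers (x axes) in each of the 16 libraries, with libraries 1, 6, 8, 14 and 16 numbered. Hcn4 was high in libraries 6, 8, 14 and 16, whereas Kcnj9 and Kcnj5 were highest in libraries 6 and 8. Kcnj6 was lowest in libraries 6 and 8. It was highest, at 61.4 CPM, in library 13, which is not numbered and had a marker sum of 125 CPM.

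The channel genes thus fell into different patterns across the same libraries. Hcn4 reached 4.03 to 13.3 CPM in the 5 libraries with Tcf7l2 above 20 CPM and 0.995 to 4.30 CPM in the other 11. Kcnj9 and Kcnj5 were highest in libraries 6 and 8, where the habenula markers Gpr151, Chrnb4 and Pou4f1 were also highest. In library 14 Kcnj9, at 84.7 CPM, was the highest of the Low Activity males, but in library 16, also high in Tcf7l2, it was at 71.9 CPM. Library 1, high in Tcf7l2 as well, had the lowest Kcnj9 of the High Activity females, at 84.9 CPM. Of the 14 thalamus and habenula markers, 5 were called higher in High Activity males and 6 were called higher over the sexes. Among all genes, 2.78% were called higher in High Activity males and 5.46% over the sexes. Among genes that pass the filter these shares were 4.77% and 9.13%. In whole tissue, fewer cells of a type and less RNA per cell cannot be told apart, and the part that neighbouring tissue played in these levels was not tested beyond the fits without the libraries named. The libraries kept in those fits still differed in their marker sums.

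Between the sexes no channel gene was called within either strain by edgeR, DESeq2 or limma-voom, against 0.0344% of all genes in High Activity mice and 0.235% in Low Activity mice, or 0.0618% and 0.421% of those that pass the filter. Kcnj6 was the only one of the 7 with an unadjusted p under 0.05 in either strain. Kcnj6 averaged 47.7 ± 9.70 CPM in Low Activity males and 37.7 ± 2.54 CPM in Low Activity females (SD, n = 4 each), a male minus female log2 difference of 0.34 ± 0.113 (SE, adjusted p = 0.217). In High Activity mice it averaged 35.3 ± 7.23 CPM in males and 42.1 ± 1.77 CPM in females.

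The sequence before the start site is shown for the GIRK genes that passed the test for any strain effect, Kcnj9 and Kcnj6, and for Hcn4 and Kcnj5, whose levels varied most between libraries relative to their mean. Promoters of 6 of the 7 genes, all but Hcn3, were matched in RefSeq on the GRCm38.p6 assembly, which is built from C57BL/6J, and the High and Low Activity alleles were not read. Each line gives the 250 bases upstream of the first annotated start, 5′ to 3′ on the gene's strand, at chr1:172329323-172329572 (minus strand) for Kcnj9, chr16:94997697-94997946 (minus) for Kcnj6, chr9:58822699-58822948 (plus) for Hcn4 and chr9:32344345-32344594 (minus) for Kcnj5. Capitals mark matches to the GC box (GGGCGG or CCGCCC), the cyclic AMP response element core (TGACG or CGTCA) and the TATA box (TATAAA or TTTATA).
Kcnj9: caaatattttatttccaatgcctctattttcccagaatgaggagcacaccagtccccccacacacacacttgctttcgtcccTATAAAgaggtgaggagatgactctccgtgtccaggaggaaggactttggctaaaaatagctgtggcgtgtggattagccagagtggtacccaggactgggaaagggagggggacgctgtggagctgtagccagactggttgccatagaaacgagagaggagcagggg
Kcnj6: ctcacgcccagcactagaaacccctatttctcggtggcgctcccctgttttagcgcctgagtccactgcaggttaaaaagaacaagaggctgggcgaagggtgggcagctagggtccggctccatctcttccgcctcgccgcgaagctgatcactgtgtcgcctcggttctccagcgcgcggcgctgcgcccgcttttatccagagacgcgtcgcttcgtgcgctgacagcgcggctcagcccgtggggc
Hcn4: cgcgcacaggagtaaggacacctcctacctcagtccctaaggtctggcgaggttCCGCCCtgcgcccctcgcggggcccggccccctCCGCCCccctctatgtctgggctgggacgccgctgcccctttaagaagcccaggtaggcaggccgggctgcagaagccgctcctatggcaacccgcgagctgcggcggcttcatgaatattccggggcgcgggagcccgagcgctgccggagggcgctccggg
Kcnj5: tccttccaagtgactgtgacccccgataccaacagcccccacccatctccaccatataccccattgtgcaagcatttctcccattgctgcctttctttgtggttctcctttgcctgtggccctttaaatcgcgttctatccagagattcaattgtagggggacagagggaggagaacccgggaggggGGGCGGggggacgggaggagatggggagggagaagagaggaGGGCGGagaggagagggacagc
The Kcnj9 stretch held 1 TATA box match and 5 CpG dinucleotides, and the Kcnj6 stretch held 26 CpG dinucleotides and no match to any of the 3 motifs. Kcnj6 has a second annotated start, whose stretch at chr16:94856691-94856940 is not printed. It held 7 CpG dinucleotides and 1 GC box match. Hcn4 and Kcnj5 each held 2 GC box matches. Over 32851 RefSeq promoters of the same length, 32.7% held a GC box match, 17.8% a response element core and 12.4% a TATA box match, and the median number of CpG dinucleotides was 6. These are matches of letters, which do not show that a factor binds there.

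On the GRCm38 build, Kcnj9 (ENSMUSG00000038026) lies at chr1:172320501-172329318 on the minus strand, Kcnj6 (ENSMUSG00000043301) at chr16:94748636-94997701 on the minus strand and Kcnj3 (ENSMUSG00000026824) at chr2:55435970-55598145 on the plus strand. Kcnj5 (ENSMUSG00000032034) lies at chr9:32314707-32344350 on the minus strand and Hcn4 (ENSMUSG00000032338) at chr9:58823412-58863175 on the plus strand. Hcn2 (ENSMUSG00000020331) lies at chr10:79716634-79736108 on the plus strand and Hcn3 (ENSMUSG00000028051) at chr3:89146074-89160196 on the minus strand. Of the 25 protein-coding genes within 500 kb of Kcnj9, 10 were called for any strain effect, against 1 of 8 around Kcnj6, 0 of 1 around Kcnj3 and 0 of 4 around Kcnj5, where 15.2% of all protein-coding genes were called. Around Hcn2, Hcn3 and Hcn4 the counts were 6 of 46, 7 of 38 and 2 of 7. Around Kcnj9, 7 genes were higher and 4 were lower in High Activity mice over the sexes. Annotated genes on the opposite strand overlap Kcnj9 (Gm36937, 0.104 CPM on average), Kcnj6 (Gm41505, 3.08 CPM) and Hcn3 (Pklr, 0.156 CPM), all far below the channel genes, and none of these 3 was called for any strain effect. The labels describe the libraries as strand-specific, but the strand setting of the counting was not given in the sources used here, so reads of such a pair may not have been separated.

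Genes that act with these channels were counted in 7 lists with 99 measured genes. In all, 25 of 99 were called for any strain effect, against 17.8% of all genes that pass the filter, which a few of the 99 do not. Without libraries 6 and 8, 28 of 99 were called. The share of all genes called without them is not given here, so the 28 cannot be set against the 17.8%. Over the sexes 9 were higher and 24 lower in High Activity mice, where 9.13% of all genes that pass the filter were called higher and 10.1% lower. Among 15 regulators of G protein signalling and of GIRK channels, 7 were lower over the sexes, with a median log2 fold change of -0.15. They included Gpsm1, an activator of G protein signalling, at 23.6 ± 1.17 CPM in High Activity females and 32.5 ± 2.48 CPM in Low Activity females, and at 26.4 ± 3.99 CPM in High Activity males and 31.1 ± 2.61 CPM in Low Activity males (SD, n = 4 each, -0.35 over the sexes, adjusted p = 0.000150 by edgeR). Rgs2, which speeds the shut-off of G protein alpha subunits, was also lower (-0.21 over the sexes, adjusted p = 0.00432). Of 18 G protein subunits, 2 were higher (Gnai1 and Gnai2, inhibitory alpha subunits) and 2 lower (Gnb5 and Gng10) over the sexes. Genes named in parentheses like these were picked after their values were seen. Gnai2 was not called over the sexes without libraries 6 and 8 (adjusted p = 0.114 by edgeR). Gnb5, the beta subunit that pairs with the R7 family of RGS proteins, was lower in both sexes, at -0.36 in females (adjusted p = 0.000179) and -0.25 in males (adjusted p = 0.00819). Gng13, a gamma subunit, was lower in females (-0.39, adjusted p = 0.00449) and at 0.21 in males (adjusted p = 0.212).

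Of 22 receptors coupled to Gi or Go, which open GIRK channels, 6 were lower and 1 higher (Oprm1, the mu opioid receptor gene, at 0.87 with adjusted p = 0.0112) in High Activity mice over the sexes. Among all genes that pass the filter, 10.1% were called lower and 9.13% higher over the sexes. Npy2r, a receptor for neuropeptide Y, averaged 31.2 ± 1.03 CPM in High Activity females and 47.0 ± 3.37 CPM in Low Activity females, and 28.3 ± 4.65 CPM in High Activity males and 45.3 ± 7.56 CPM in Low Activity males (SD, n = 4 each). Its log2 fold change was -0.63 ± 0.0688 over the sexes (SE, adjusted p = 1.4e-07 by edgeR). Oprd1, the delta opioid receptor gene, was lower as well (-0.38, adjusted p = 0.000596). Of the 6 GABA-B receptor and KCTD subunit genes, Gabbr1, the ligand-binding subunit, was higher in High Activity mice (0.17 over the sexes, adjusted p = 0.00502). Without libraries 6 and 8 Gabbr1 was at 0.12 over the sexes (adjusted p = 0.0416). Its call for any strain effect was then lost (adjusted p = 0.103). Kctd16, an auxiliary subunit of the GABA-B receptor, was lower in males, at 12.2 ± 2.58 CPM in High Activity males and 19.2 ± 2.51 CPM in Low Activity males (-0.65, adjusted p = 0.000270), and at -0.02 in females (adjusted p = 1.0). Without libraries 6 and 8 Kctd16 was at -0.42 in males (adjusted p = 0.0133).

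Of 10 other inward rectifier genes, 2 were higher (Kcnj16 and Kcnj13) and 3 lower (Kcnj12, Kcnj4 and Kcnj11) over the sexes. For this list and those below, the shares among all genes that pass the filter were 9.13% higher and 10.1% lower. Kcnj13 is a gene of the choroid plexus, whose 7 markers summed to 1001 to 4485 CPM in High Activity females and 132 to 1689 CPM in Low Activity females, and to 2299 to 5298 CPM in High Activity males and 732 to 3567 CPM in Low Activity males, and their part in its difference was not tested. Kcnj16, which encodes Kir5.1, a subunit that pairs with the glial channel Kir4.1, averaged 25.7 ± 0.982 CPM in High Activity females and 10.9 ± 1.51 CPM in Low Activity females, and 24.5 ± 4.09 CPM in High Activity males and 10.1 ± 1.47 CPM in Low Activity males (SD, n = 4 each). Its log2 fold change over the sexes was 1.25 ± 0.0797 (SE, adjusted p = 3.7e-12 by edgeR). Kcnj12, which encodes the strong inward rectifier Kir2.2, averaged 5.13 ± 0.672 CPM in High Activity females and 13.8 ± 3.18 CPM in Low Activity females, and 7.56 ± 4.36 CPM in High Activity males and 13.7 ± 3.56 CPM in Low Activity males (-1.15 ± 0.185, adjusted p = 6.36e-05). Of 10 HCN partner genes, 1 was called over the sexes, Nedd4l, which encodes a ubiquitin ligase, and it was higher in High Activity mice (0.25, adjusted p = 0.000260). Of 18 adenylyl cyclase and phosphodiesterase genes, which set the cyclic AMP level, 2 were higher (Adcy7 and Pde4b) and 5 lower (Adcy1, Adcy2, Pde1a, Pde1b and Pde4a) over the sexes. Without libraries 6 and 8, Adcy1, Adcy2 and Pde1a were not called over the sexes (adjusted p = 0.0929, 0.153 and 0.128 by edgeR). Adcy1, a calcium-stimulated cyclase of hippocampal neurons, was lower in High Activity males (-0.41, adjusted p = 0.00204) and at -0.01 in females (adjusted p = 1.0), a call that was lost without libraries 6 and 8 (-0.26 in males, adjusted p = 0.0670), and Pde4b was higher over the sexes (0.19, adjusted p = 0.00166).

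**Figure D5:**
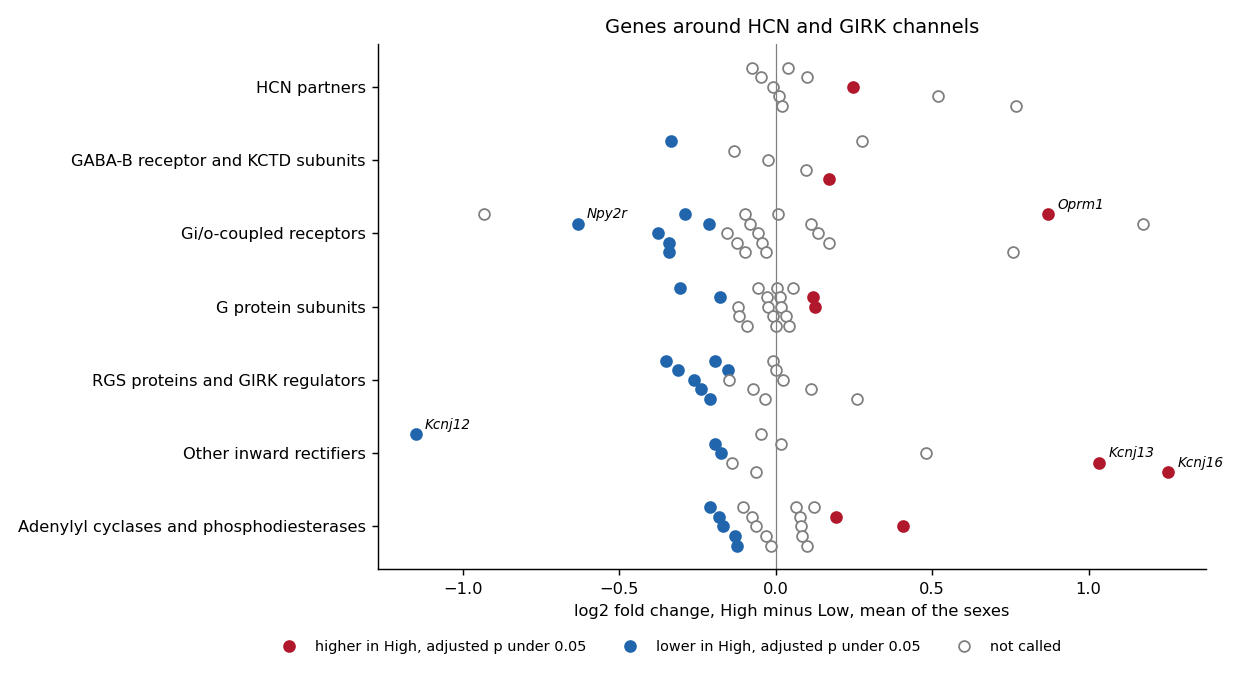
Log2 fold change of High over Low Activity, averaged over the sexes (x axis), of the 99 genes of the 7 lists (y axis), with filled points for an adjusted p under 0.05. Kcnj16 at 1.25 and Kcnj12 at -1.15 lay at the edges of the plot. Called lower were 7 of the 15 regulators of G protein signalling, against 10.1% of all genes that pass the filter.

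Across the 16 libraries, which share strain, sex and the tissue differences described, genes with a pattern like that of each channel gene were found by Pearson correlation of log2 of CPM plus 1 among 13371 protein-coding genes. Hcn4 was close to Patj (r = 0.97), Kcnj6 to Dgkh (r = 0.95), and Kcnj9 to Tspyl4 (r = 0.91) and Flywch1 (r = 0.91). Kcnj3 was most like Porcn (r = 0.91) and Plekhg5 (r = 0.90), Hcn2 like Lrp3 (r = 0.90) and Cldn12 (r = 0.89), Kcnj5 like Sars2 (r = 0.89) and Mrpl44 (r = 0.88), and Hcn3 like Sirt6 (r = 0.88) and Ttc4 (r = 0.85). No channel gene was among the closest genes of another. Among the 7 themselves, the highest correlations were between Kcnj9 and Kcnj5 (r = 0.76), Hcn2 and Hcn4 (r = 0.73) and Hcn4 and Kcnj9 (r = 0.71), and the lowest was between Kcnj6 and Kcnj9 (r = -0.69). Over the 14 libraries other than 6 and 8 these values were 0.15 for Kcnj9 and Kcnj5, 0.52 for Hcn2 and Hcn4, 0.32 for Hcn4 and Kcnj9 and -0.28 for Kcnj6 and Kcnj9, and the r of Kcnj5 with Sars2 was 0.54.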

How the data were processed

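Poly-A RNA of 16 hippocampal samples was sequenced as paired ends. The authors trimmed reads with cutadapt and aligned them with HISAT2 (mm10). They ran RSEM on Ensembl release 93 to obtain expected counts for each gene, and removed genes at 0 in every library. The deposited values are these expected counts, given as whole numbers and not normalized, so that levels depend on the scaling factors chosen here. The library totals ranged from 20815456 to 28760896 counts.

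CPM was computed with TMM factors. All 31960 genes were fitted in edgeR 4.0.16 under R 4.3.3 by the legacy quasi-likelihood method on the 4 group means, with no filter on low counts, with Benjamini-Hochberg adjustment across the whole table. Symbols, exon lengths and positions came from GENCODE release 21, where 61 identifiers were missing. The filter named in the text is filterByExpr. DESeq2 1.42.0, limma-voom (limma 3.58.1), other scaling factors, offsets for length and GC content, and fits without libraries were run as alternatives. The fit script was tested on simulated data. The 7 genes and the gene lists were chosen with earlier results of these data known. All 7 were described, and from each pathway list the 2 genes with the smallest p for any strain effect among those called were named, along with the 2 genes most correlated with each channel gene and the genes that overlap one. Some items that this rule names are not reported here. No set test was run, and no protein sequence was used here.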

Additional observations from a re-analysis of the deposited data

Results flagged for a closer look

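Among the 28 groups of 4 libraries formed by the 7 genes and 4 groups, 2 held a library far from the other 3, where chance gives about 1 in 20 groups. Hcn3 was at 12.2 CPM in Low Activity male 14, against 11.1 CPM in each of the other 3 Low Activity males, and this gap was 0.935 of the range of the group. Kcnj3 was at 159 CPM in Low Activity male 13, against 136 to 139 CPM in the other 3, a gap of 0.873 of the range. Library 13 was also the highest of all 16 in Kcnj6, at 61.4 CPM, and was 1 of the 3 male libraries with Xist above 2 CPM.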

How the results depend on the processing

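Of 200 recounts of the channel genes called, 172 stayed within 1.5 times the main count and 28 moved. The share of all genes called in each setting is not given beside these counts. A count that rose or fell therefore does not set the channel genes apart from other genes. For any strain effect the count of 2 became 1 with filterByExpr, 0 with limma-voom, 0 without libraries 6 and 8, 1 without the male libraries with Xist above 2 CPM, and 4 without the 5 libraries with Tcf7l2 above 20 CPM, a setting added after the data were seen. In females the count of 0 became 2 without those 5 libraries and 2 with each sex fitted alone. In males the count of 2 became 0 with limma-voom, 0 without libraries 6 and 8, 1 without the Xist libraries and 1 with each sex alone. Over the sexes the count of 2 became 1 with upper-quartile factors and 1 without the Xist libraries. The interaction count of 0 became 1 (Kcnj6) without the 5 libraries, and the male minus female count of 0 in Low Activity mice became 1 (Kcnj6) without libraries 6 and 8 and 2 (Kcnj6 and Kcnj9) without the 5 libraries. Leaving out each library in turn gave 1 to 3 for any strain effect, 1 to 3 in males, 1 to 3 over the sexes, 0 to 1 for the interaction, 0 to 0 in females and 0 to 0 between the sexes in either strain.

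Of the log2 fold changes, 729 kept direction and call, 15 gained a call, 20 lost one and 34 changed sign, all 34 of values not called in the main design. Hcn2 changed sign in females with the length and GC offset (0.0342), in males without libraries 6 and 8 (-0.12) and without the Xist libraries (-0.0874), over the sexes with filterByExpr (0.00333), upper-quartile factors (0.00174), DESeq2 (0.000178) and the offset (0.0615), and in the interaction without libraries 6 and 8 (0.0499) and without the Xist libraries (0.0213). Hcn4 changed sign in males without libraries 6 and 8 (-0.64) and without the Xist libraries (-0.15), and in the interaction with the offset (-0.0170) and without the 5 libraries (-0.13). Kcnj9 changed sign in the interaction without libraries 6 and 8 (0.0357). Kcnj5 changed sign in males without the 5 libraries (-0.13) and in the interaction without libraries 6 and 8 (0.45) and without the 5 (0.43). With each library left out in turn, Hcn2 spanned -0.0244 to 0.14 in males and -0.0474 to 0.0385 over the sexes, Hcn3 -0.18 to 0.0295 in males and Hcn4 -0.39 to 0.67 in the interaction. With limma-voom, Kcnj9 (adjusted p = 0.0566) and Kcnj6 (adjusted p = 0.0716) missed the threshold in males, as did Kcnj6 with each sex fitted alone (adjusted p = 0.0977). The causes were not tested beyond the libraries left out. Removing the 5 libraries leaves 2 males of each strain, and its p-values are not comparable with those of the main fit. For Kcnj16 over the sexes the adjusted p was 1.89e-60 in that fit, against 3.7e-12 with all 16 libraries (edgeR). Kcnj5, at 4 to 45 counts per library, is limited by depth. No paired analysis was possible because the libraries are numbered 1 to 16 and the groups share no number.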
